A study of Mus musculus with 4 samples.

Results

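The Hippo pathway genes Yap1, Wwtr1, Tead1 to Tead4, Lats1, Lats2, Ccn1 and Ccn2 were examined in 4 cell lines of murine small cell lung cancer (SCLC). They were taken by symbol, and all 10 were found among the 54641 gene symbols of the deposited expression table, with Wwtr1 as the gene of the coactivator TAZ. The lines came from an autochthonous mouse model on a C57BL/6 background, in which Cre delivered by an adenovirus to the airways deletes conditional Rb1 and Trp53 alleles. P1, P4 and P5 each derive from a primary lung tumor (n = 3 lines), and M1 derives from a liver metastasis (n = 1). All 4 lines share the deletions, were grown untreated and are represented by 1 bulk RNA library each, so that the primary lines give the spread and M1 has no replicate. The study's methods set a lower age limit for mice of the model, but the age of the animal behind each line and the promoter that drives Cre are not given in the sources used here. Expression is given as CPM, the reads of a gene per 1000000 reads assigned to genes in that library.

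YAP (encoded by Yap1) and TAZ (encoded by Wwtr1) are transcriptional coactivators without a DNA-binding domain of their own. They bind the TEAD transcription factors, and together they drive genes such as Ccn1, Ccn2 and Ankrd1. The kinases LATS1 and LATS2, activated by the MST kinases, phosphorylate both coactivators, which are then held in the cytoplasm by 14-3-3 proteins or degraded. In SCLC, YAP1 is known to be low in neuroendocrine cells and present in non-neuroendocrine ones.

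TEAD factors recognize the core sequence GGAATG, which reads CATTCC on the other strand. In the 250 bases before the RefSeq transcript start (build GRCm38.p6, to which mm10 corresponds), this core occurred on either strand in 12.6% of 32851 promoters and in at least 1 promoter of 14.4% of 27025 genes. Promoter sequences were on hand for 7 of the 10 genes, of which Yap1, Wwtr1, Tead3 and Ccn1 had the core in at least 1 promoter. Of 14 genes widely used as YAP and TAZ targets that had a sequence, 6 had it. A match of letters is a description and no evidence of binding. The promoters of 3 target genes described further on are shown 5′ to 3′ on the strand of the gene with the core in capitals, since their levels ran differently across the lines. They are Ccn1 (chr3:145649986-145650235, minus strand), Ankrd1 (chr19:36119845-36120094, minus strand) and Amotl2 (chr9:102717554-102717803, plus strand).
Ccn1: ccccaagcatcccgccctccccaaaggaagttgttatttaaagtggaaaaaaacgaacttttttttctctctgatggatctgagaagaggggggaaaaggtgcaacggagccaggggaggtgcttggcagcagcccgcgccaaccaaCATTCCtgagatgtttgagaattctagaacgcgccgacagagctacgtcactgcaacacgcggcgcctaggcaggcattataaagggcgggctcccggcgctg
Ankrd1: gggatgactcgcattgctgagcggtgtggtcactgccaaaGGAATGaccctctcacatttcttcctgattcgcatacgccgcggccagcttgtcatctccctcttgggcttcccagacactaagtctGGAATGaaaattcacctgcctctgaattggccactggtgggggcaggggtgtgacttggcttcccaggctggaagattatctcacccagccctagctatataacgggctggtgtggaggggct
Amotl2: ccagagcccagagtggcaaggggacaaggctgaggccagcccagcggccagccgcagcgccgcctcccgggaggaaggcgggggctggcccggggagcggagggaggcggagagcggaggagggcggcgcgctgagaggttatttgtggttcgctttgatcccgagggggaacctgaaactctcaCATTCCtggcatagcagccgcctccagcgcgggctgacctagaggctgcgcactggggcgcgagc
In Ccn1 the core began 103 bases before the start, in Amotl2 65 bases before it, and in Ankrd1 the cores began 210 and 123 bases before it.

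The libraries held 9527011 to 13890726 assigned reads and were unequal in the number of genes found. Symbols above 0 numbered 17824 in P1 and 20578 in P5 but 7985 in P4 and 10074 in M1. Genes with 10 to 30 CPM in both P1 and P5 numbered 2063, and 39.7% of them had a 0 in P4 and 22.0% in M1. For 1182 genes with 50 to 120 CPM in both, the shares were 6.26% and 1.95%. No fold is therefore formed against a value of 0. These and the following CPM ranges were chosen after the values were seen. A count of 3 reads, taken as the floor, corresponds to 0.216 CPM for P4 and 0.269 CPM for M1. The reads of Rb1 amounted to 10.3 CPM in P1, 13.2 CPM in P5 and 0 in the other lines, and those of Trp53 to 0.260 CPM or less in each line. Transcript from outside the deleted exons can be counted, so that neither gene tests the deletion. The labels call the cells epithelial. Of 6 epithelial markers, Krt8, Krt18 and Krt19 were above 0 in every line, with Krt8 between 32.5 CPM in P5 and 1543 CPM in P1. Epcam, Cdh1 and Krt7 were listed at 0 in P4, and Krt7 also in M1. Of 12 neuroendocrine markers, 12 were above 0 in P5, 8 in M1, 3 in P1 and 1 in P4, where only Ncam1 was found.

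The comparison of M1 with the primary lines asked which of these genes lay outside the spread of the primary lines. Yap1, Wwtr1, Tead1 and Lats2 were lower in M1 than in each primary line, and Tead2 and Lats1 were higher. Ccn1 and Ccn2 lay between the primary values, and Tead3 and Tead4 had a listed 0 in M1 and P4. A lower value in M1 than in every primary line was found for 4 of the 10 genes, against 20.7% of the 14888 genes tested, and a higher one for 2 of 10, against 22.0%. Of the 10 genes, 0 passed an adjusted p of 0.05 (limma with Benjamini-Hochberg adjustment), as did 0.0% of all genes. The spread was estimated from 3 lines, and the smallest adjusted p of any gene was 0.304. At an unadjusted p under 0.05, Yap1 and Tead1 were lower, which is 2 of 10 genes against 5.15% of all genes, and 0 of 10 were higher against 4.53%. In either direction 1441 genes (9.68%) reached that level. The median difference in log2(CPM + 1) was -1.23 over the 10 genes and -0.53 over all genes tested.

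These counts depended on P4, whose library held the fewest genes. Without P4, M1 was below P1 and P5 for 6 of the 10 genes and above both for 2, against 58.8% and 27.4% of all genes, so that the share of lower genes was near the background. Tead3 and Tead4 were the genes added. At an unadjusted p under 0.05 there were then 3 of the 10 genes (Yap1, Tead1 and Tead3) against 35.5% of all genes (5286 genes). Without P1 or without P5, the same level was reached by Yap1 alone, against 1.01% (150 genes) and 4.62% (688 genes).

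**Figure D1:**
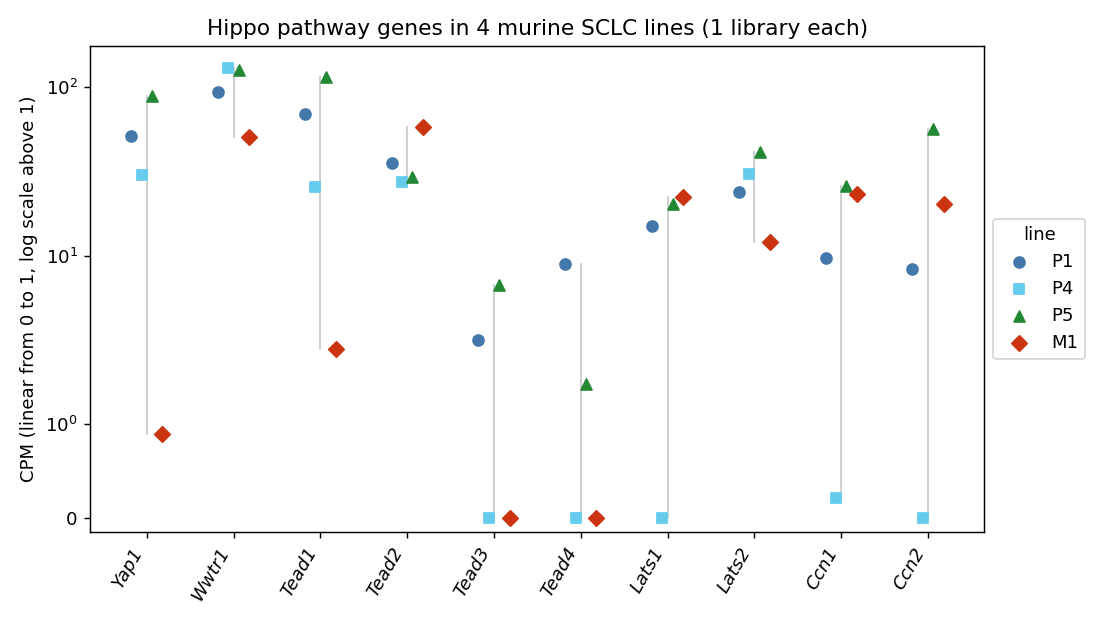
CPM of the 10 Hippo pathway genes in lines P1, P4, P5 (primary) and M1 (metastasis), 1 point per library, on an axis that is linear from 0 to 1 CPM and logarithmic above. M1 lies lowest for Yap1 at 0.895 CPM and for Tead1 at 2.78 CPM, P4 lies lowest for Ccn1 at 0.216 CPM, and Tead3 and Tead4 are at 0 in both of these lines.

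Of the coactivators, Yap1 was almost absent from M1, while Wwtr1 was detected in every line. Yap1 (chromosome 9, 7931999 to 8004638) had 51.3 CPM in line P1, 88.0 in P5, 30.2 in P4 and 0.895 in M1. The M1 value rested on 10 reads, with an exact Poisson 95% interval of 0.429 to 1.65 CPM that covers counting error only. The 3 primary lines, at 56.5 ± 29.3 CPM (SD, n = 3), did not overlap with M1, which reached 1.58% of their mean. The difference in log2(CPM + 1) was -4.79 ± 0.92 (SE; limma, adjusted p = 0.304) and stayed negative whichever primary line was left out. Of the 1182 genes between 50 and 120 CPM in P1 and P5, 46 (3.89%) were likewise under 1 CPM in M1. In bulk RNA, fewer cells that express a gene and less RNA per cell cannot be told apart.

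Wwtr1 (chromosome 3, 57455644 to 57575910) had 93.1 CPM in line P1, 126 in P5, 129 in P4 and 50.7 in M1. P4 and P5 did not differ beyond counting error, with intervals of 123 to 135 and 119 to 132 CPM. M1 was below all primary lines and at 43.7% of their mean of 116 ± 19.9 CPM (SD, n = 3). The log2 difference was -1.16 ± 0.45 (SE; limma, adjusted p = 0.569). The lower value in M1 was thus much smaller in extent for Wwtr1 than for Yap1, although the difference between both genes was not tested. The ratio of Yap1 to Wwtr1 CPM was 0.551 in P1, 0.699 in P5, 0.234 in P4 and 0.0177 in M1. Since CPM is not corrected for transcript length, this ratio can be read across lines only.

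Markers of neuroendocrine cells, in which YAP1 is known to be low, were in part higher in M1, where Yap1 was lowest. Across the primary lines their summed level had the same order as Yap1. Of 12 markers, 7 were higher in M1 than in each primary line, among them the transcription factor genes Neurod1 (134 CPM in M1, at most 0.0868 CPM elsewhere) and Insm1 (74.0 CPM in M1, at most 6.94 CPM elsewhere). The summed level of the 12 markers was 299 to 1407 CPM in the primary lines, highest in P5 as for Yap1, and 745 CPM in M1. All 6 non-neuroendocrine markers were above 0 in every line, and 5 of them had a negative log2 difference in M1. Their median difference was -0.97, against -0.53 over all genes tested. M1 lay below every primary line for 2, above for 1 and within the primary range for 3. The higher one was Anxa1, with 69.7 CPM in M1 and 40.2 to 63.2 CPM in the primary lines. Vim, which encodes vimentin, and Zeb1, a transcription factor gene of mesenchymal cells, were below every primary line. Vim had 1130 CPM in M1 and 1499 to 2245 CPM in the primary lines. Zeb1 had 17.6 CPM in M1 and 59.8 to 98.0 CPM in the primary lines (log2 difference -2.05 ± 0.55, SE; limma, unadjusted p = 0.0217, adjusted p = 0.373). The part of either marker list in the Yap1 values was not tested.

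The genes whose profile over the 4 libraries was most like that of Yap1 were sought among 8253 genes at or over a mean of 10 CPM. Likeness was the root mean square difference between centred log2(CPM + 1) profiles. The closest were Man2a2, Polb, Eef2kmt, D3Ertd254e and Kidins220, with values of 0.084 for Man2a2 and 0.18 to 0.20 for the others. Man2a2, which encodes a mannosidase of the Golgi, had 25.6, 16.9 and 51.0 CPM in the primary lines (P1, P4 and P5, in this order also further on) and a listed 0 in M1. Polb, which encodes DNA polymerase beta, had 37.5, 22.9 and 48.8 CPM in the primary lines and 0.269 in M1. With 4 libraries such likeness describes these lines only.

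Among the TEAD factors, Tead1 and Tead2 ran in opposite directions in M1. Tead1 (chromosome 7, 112679356 to 112906784) had 69.1 CPM in line P1, 115 in P5, 25.6 in P4 and 2.78 in M1. The value of M1 rested on 31 reads (95% interval 1.89 to 3.94 CPM, counting error only) and was 10.9% of that of P4, the lowest primary line. The log2 difference was -3.99 ± 1.08 (SE; limma, adjusted p = 0.373). Tead1 and Yap1 had the same order of lines, with P5 highest, then P1, P4 and M1. Of the 1182 genes between 50 and 120 CPM in P1 and P5, 58 (4.91%) were under 3 CPM in M1.

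Tead2 (chromosome 7, 45215792 to 45233468) had 35.6 CPM in line P1, 29.1 in P5, 27.4 in P4 and 57.9 in M1. Of the 10 genes it had the most even primary values, at 30.7 ± 4.34 CPM (SD, n = 3), and P4 and P5 did not differ beyond counting error. M1 lay above all of them, at 189% of their mean, with a log2 difference of 0.90 ± 0.56 (SE; limma, adjusted p = 0.721). The ratio of Tead1 to Tead2 CPM was 1.94 in P1, 3.97 in P5, 0.934 in P4 and 0.0479 in M1. This ratio, again read across lines only, was lowest in M1, which follows from M1 having the lowest Tead1 and the highest Tead2.

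Tead3 and Tead4 were low genes that were found only in P1 and P5. Tead3 (chromosome 17, 28331671 to 28350805) had 3.15 CPM in line P1 and 6.68 in P5. Tead4 (chromosome 6, 128227143 to 128300813) had 8.92 CPM in line P1 and 1.74 in P5. Both had a listed 0 in P4 and M1 (limma, adjusted p = 0.721 for each). A 0 in these libraries was frequent at this level, since of 2794 genes between 1 and 10 CPM in P1 and P5, 73.1% were at 0 in P4 and 59.0% in M1. P4 and M1 held more assigned reads than P1, which had 30 reads of Tead3 and 85 of Tead4, and the 95% upper bounds for a count of 0 were 0.266 CPM in P4 and 0.330 CPM in M1 (counting error only).

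**Figure D2:**
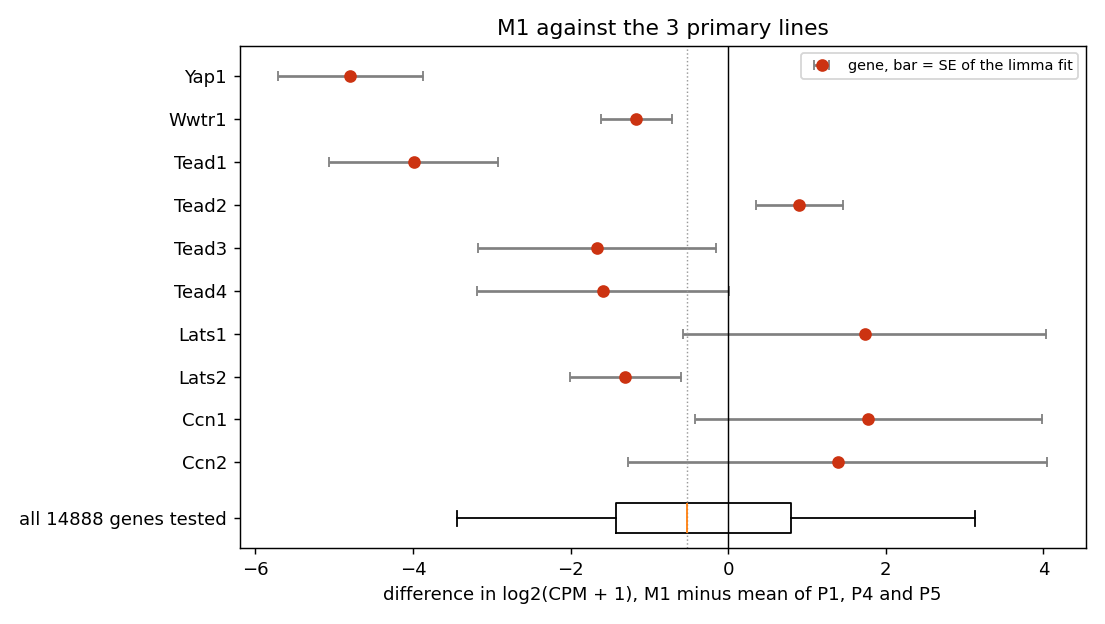
Difference in log2(CPM + 1) between M1 and the mean of the 3 primary lines for each gene (points) with the standard error of the limma fit (bars); the box below shows the median and quartiles of all 14888 genes tested, with whiskers from the 5th to the 95th percentile (-3.44 to 3.13). Yap1 at -4.79 and Tead1 at -3.99 lie beyond the whiskers, and the 3 wide bars near 2 belong to Lats1, Ccn1 and Ccn2, whose P4 values were at or near 0.

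The kinase genes Lats1 and Lats2 also differed in direction. Lats2 (chromosome 14, 57689662 to 57746212), which is itself induced by YAP and TEAD as a negative feedback, had 23.8 CPM in line P1, 41.3 in P5, 30.5 in P4 and 12.0 in M1. M1 was thus below all primary lines, at 37.6% of their mean of 31.9 ± 8.82 CPM (SD, n = 3), with a log2 difference of -1.31 ± 0.71 (SE; limma, adjusted p = 0.721). Lats1 (chromosome 10, 7681200 to 7716461) had 15.0 CPM in line P1, 20.1 in P5, 22.1 in M1 and a listed 0 in P4. P5 and M1 did not differ beyond counting error, since the interval of P5 reached 22.9 CPM and that of M1 began at 19.4 CPM. The log2 difference of 1.73 ± 2.31 (SE; limma, adjusted p = 0.746) rested on P4, and without this line it was 0.33 ± 0.39 (SE; adjusted p = 0.562).

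Upstream of LATS, the list of 14 kinase core genes showed no common direction in M1. M1 was below every primary line for 4 (Stk4, Sav1, Taok2 and Rassf1) and above it for 3 (Mob1a, Nf2 and Map4k4), against 20.7% and 22.0% of all genes tested. The median log2 difference was -0.06, against -0.53 over all genes, and 0 passed the adjusted threshold (limma). Without P4, M1 was below P1 and P5 for 10 of the 14, against 58.8% of all genes. Rassf1, whose product is a scaffold that binds the MST kinases, had 36.05 CPM in line P1, 40.7 in P5, 48.1 in P4 and 2.74 in M1. Its primary values were close to each other, and its log2 difference was -3.50 ± 0.68 (SE; limma, adjusted p = 0.304). Rassf1 was the only gene of this list with an unadjusted p under 0.05. Sav1, which encodes the adaptor of the MST kinases, reached 14.2, 6.98 and 13.0 CPM in the primary lines and had a listed 0 in M1 (limma, adjusted p = 0.542). In contrast, Nf2, which encodes the upstream activator merlin, reached 98.8 CPM in M1, where the primary lines had 41.0 ± 12.7 CPM (SD, n = 3). Its log2 difference was 1.30 ± 0.63 (SE; limma, adjusted p = 0.695).

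The kinase gene Map4k4 was also highest in M1, at 447 CPM, with 280, 139 and 331 CPM in P1, P4 and P5 (limma, adjusted p = 0.721). Taok1 differed mainly in P4, where it had 15.6 CPM, with 324 in P1, 374 in P5 and 255 in M1 (limma, adjusted p = 0.801), and its log2 difference of 1.02 turned to -0.45 without P4. P4 was lower than both P1 and P5 for 13 of the 14 genes, compared with 65.5% of all genes tested. Of 11 genes that feed into the core from cell junctions and protocadherins, M1 was below every primary line for 4 and above it for 2. The shares of all genes tested were 20.7% and 22.0%. The median log2 difference was -1.21, against -0.53 over all genes, and 0 genes passed the adjusted threshold (limma). With 1 primary line left out, M1 was below the others for 5 to 6 of the 11, against 22.4% to 58.8% of all genes. Amotl1 and Amot, which encode junctional proteins that bind YAP and TAZ, were among the 4. Amotl1 was at 130, 86.9, 308 and 58.5 CPM in P1, P4, P5 and M1 (limma, adjusted p = 0.721). Amot was at 16.1, 61.7, 26.7 and 12.3 CPM in the same order (limma, adjusted p = 0.721). Dlg5, which encodes a scaffold protein, had 116 CPM in line P1, 59.5 in P5, 6.18 in M1 and a listed 0 in P4. The protocadherin gene Fat4 had 10.1 CPM in P5, 1.39 in P1 and a listed 0 elsewhere.

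**Figure D3:**
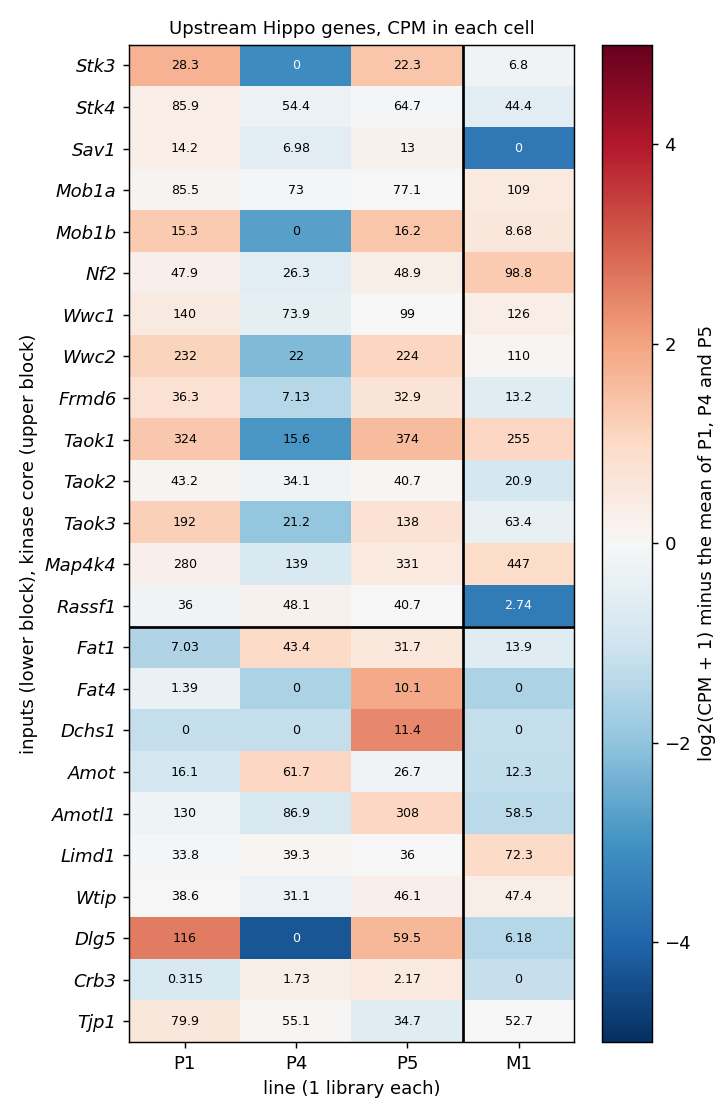
Upstream Hippo genes by line, with the CPM printed in each cell and the color showing log2(CPM + 1) relative to the mean of P1, P4 and P5; the upper block holds the 14 kinase core genes and the lower block 10 of the 11 input genes. Rassf1 (2.74 CPM) and Sav1 (0) are the darkest cells of M1 in the upper block, while the P4 column is blue for most of that block.

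Of 11 genes for other TEAD cofactors and 14-3-3 proteins, 9 were tested. M1 was below every primary line for 2 of them and above it for 0, against 20.7% and 22.0% of all genes tested. The median log2 difference was -0.55, near that of all genes at -0.53, and 0 genes passed the adjusted threshold (limma). Without P4, M1 was below P1 and P5 for 7 of the 9 and above both for 2, against 58.8% and 27.4% of all genes. Ywhag, which encodes a 14-3-3 protein, had 242, 223 and 299 CPM in the primary lines and 105 in M1 (log2 difference -1.26 ± 0.40, SE; limma, adjusted p = 0.454). Ywhaz, another 14-3-3 gene, peaked in P1 at 1297 CPM, with 321 in P4, 590 in P5 and 406 in M1. Vgll4, which encodes a competitor of YAP for TEAD binding, had 60.8 CPM in line P1, 55.1 in P5, 41.9 in M1 and a listed 0 in P4. Vgll3, of the same family, had 42.9 CPM in P5, 2.83 in P1 and a listed 0 elsewhere, and Sfn was at most 2.26 CPM in any line. Neither Vgll4 nor Vgll3 gave a difference beyond the spread of the primary lines (limma, adjusted p = 0.782 and 0.721).

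The targets Ccn1 and Ccn2, which encode matricellular proteins of the CCN family, did not follow the order of Yap1. Ccn1 (chromosome 3, 145646971 to 145649985) had 9.66 CPM in line P1, 25.9 in P5, 0.216 in P4 and 23.2 in M1. The P4 value rested on 3 reads (95% interval 0.0445 to 0.631 CPM), and P5 and M1 did not differ beyond counting error. Ccn2 (chromosome 10, 24595442 to 24598683) had 8.29 CPM in line P1, 56.2 in P5, 20.2 in M1 and a listed 0 in P4. For both genes P4 was thus the lowest line and P5 the highest, with M1 between P1 and P5. P4 had 30.2 CPM of Yap1 and the highest Wwtr1, whereas M1 had hardly any Yap1.

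The log2 difference between M1 and the primary lines was 1.78 ± 2.20 for Ccn1 (SE; limma, adjusted p = 0.734) and 1.39 ± 2.66 for Ccn2 (SE; limma, adjusted p = 0.778). Both were smaller than their errors and rested on P4. Without P4 the values were 0.51 ± 0.81 for Ccn1 and -0.12 ± 1.48 for Ccn2 (SE; limma, adjusted p = 0.647 and 0.957), so that the direction of Ccn2 turned. Low values in P4 were frequent at this level, since of 4750 genes between 8 and 60 CPM in P1 and P5, 39.2% were under 1 CPM in P4. Fibroblasts are a known source of Ccn1 and Ccn2 transcripts, and the summed level of their markers was highest in the same line, P5. Together 9 fibroblast markers had 1099 CPM in P5, 115 in P1, 33.7 in P4 and 38.5 in M1. Of the 7 tested, 6 were highest in P5, against 38.2% of all genes tested, whereas Dcn had 21.8 CPM in P1 and 2.43 in P5. Of the 9 markers, 9 were above 0 in P5, where Lum and Thy1 at 0.174 CPM lay under the floor of 0.260 CPM. Above 0 were 7 in P1 and 2 each in P4 and M1, with Pdgfra, Pdgfrb and Dcn at 0 in P4 and M1. The part of the fibroblast markers in the Ccn1 and Ccn2 values was not tested. Immune cell markers together had 136 CPM in M1 and 4.72 CPM at most in the primary lines, with 5 of 10 above 0 in M1 and Ptprc, which marks leukocytes, at 0, and their part was likewise not tested.

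Other genes widely used as YAP and TAZ targets were examined as a list of 20. In M1, 5 were below every primary line (Myof, Amotl2, Crim1, Nt5e and Nuak2), against 20.7% of all genes tested. Above every primary line were 4 (Igfbp3, Foxf2, Dock5 and Ajuba), against 22.0%. Some of these margins were narrow. Nuak2 had 6.45 CPM in M1 and 6.48 in P4, and Igfbp3 9.76 in M1 and 9.55 in P5. Dock5 had 36.4 CPM in M1 and 35.7 in P4. The median log2 difference of the list was -0.61, near that of all genes at -0.53. Of the list, 0 passed the adjusted threshold (limma). Without P4, 13 of the 20 were below P1 and P5, against 58.8% of all genes. Myof, which encodes myoferlin, had 596, 323 and 334 CPM in the primary lines and 126 in M1 and was the only one with an unadjusted p under 0.05 (log2 difference -1.66 ± 0.54, SE; limma, adjusted p = 0.469). Amotl2, a target that encodes an inhibitory YAP-binding protein, had 42.5 CPM in line P1, 169 in P5, 6.41 in P4 and 1.88 in M1. The lines thus had the same order as for Yap1 and Tead1, but the primary values were far apart (log2 difference -3.72 ± 2.02, SE; limma, adjusted p = 0.721). Nt5e, which encodes the ectonucleotidase CD73, had 1.89, 16.7 and 4.69 CPM in the primary lines and a listed 0 in M1. Foxf2, a forkhead transcription factor gene, had 12.0 CPM in M1, with 2.31, 9.43 and 0.781 CPM in P1, P4 and P5 (limma, adjusted p = 0.721 for both).

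Axl and Ankrd1, named after their values were seen, lay within the range of the primary lines in M1. Axl, which encodes a receptor tyrosine kinase, had 237 CPM in M1, with 238, 199.7 and 298 CPM in the primary lines (log2 difference -0.03 ± 0.43, SE; limma, adjusted p = 0.970). Ankrd1, which encodes a nuclear ankyrin repeat protein, was lowest in P4 (102 CPM) and M1 (112 CPM), with 479.6 CPM in P1 and 410.1 CPM in P5 (limma, adjusted p = 0.721). The 3 genes whose promoters are shown above differed in their order of lines, with P4 lowest for Ccn1 and Ankrd1 and M1 lowest for Amotl2. Of the 20 targets, 10 were highest in P5, against 38.2% of all genes tested. Rbms3 and, named after their values were seen, Ccdc80 and Tgfb2 were among those highest in P5, where the summed level of the fibroblast markers was highest too. Rbms3 had 71.2 CPM there and at most 5.98 CPM elsewhere, Ccdc80 631 and at most 17.5 CPM, and Tgfb2 230.2 and at most 26.7 CPM. The part of those markers was not tested.

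**Figure D4:**
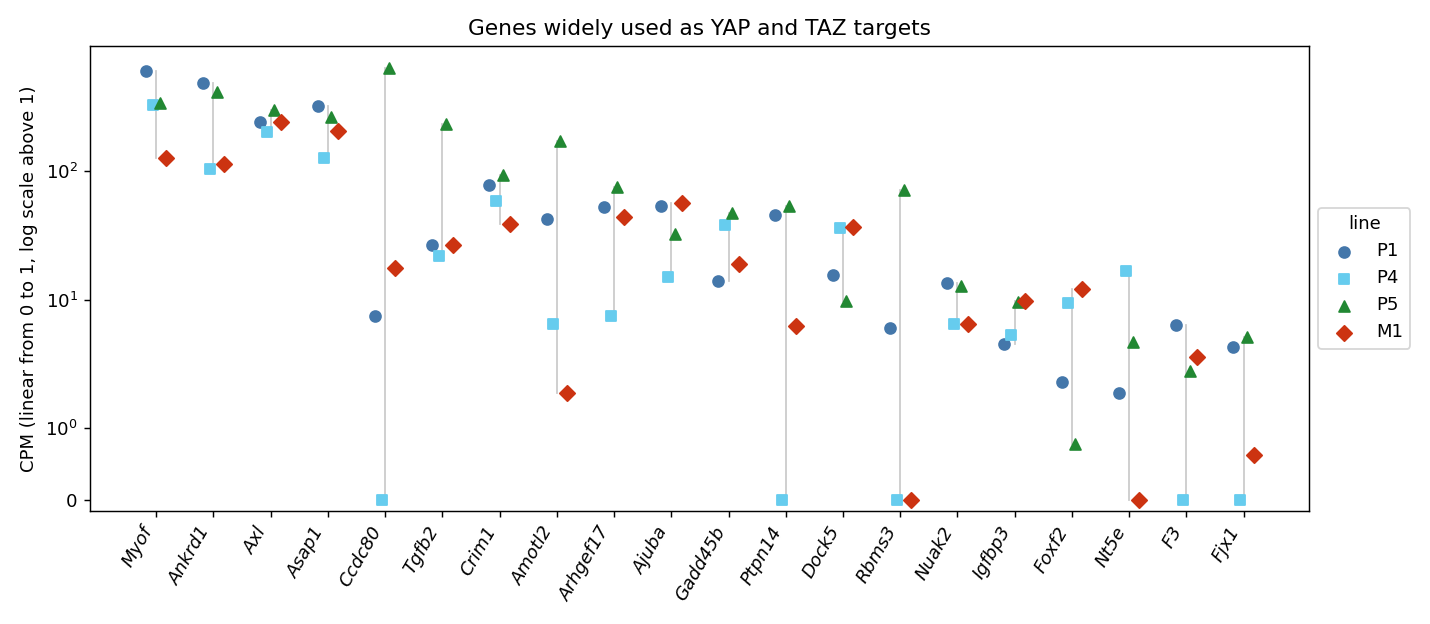
CPM of 20 genes widely used as YAP and TAZ targets in the 4 lines, ordered by mean level, on an axis that is linear from 0 to 1 CPM and logarithmic above. M1 is the lowest line for Myof and Amotl2 and close to the primary lines for Axl. It is highest for Dock5, Ajuba, Foxf2 and Igfbp3, for Dock5 and Igfbp3 by a narrow margin. P4 or M1 holds each value of 0.

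M1 and P4, the libraries with the fewest genes, were also compared with each other. M1 was above P4 for 4 of the 10 genes and below it for 4, with Tead3 and Tead4 at 0 in both. Relative to P4, the log2(CPM + 1) difference of M1 was -4.04 for Yap1, -2.81 for Tead1, -1.33 for Wwtr1 and -1.28 for Lats2. It was 1.06 for Tead2, while Lats1 and Ccn2 had a listed 0 in P4 and Ccn1 had 3 reads. For Yap1, Tead1, Wwtr1, Lats2 and Tead2, M1 already lay outside the range of all primary lines, P4 included. The directions against P4 were thus fixed beforehand, and only the sizes are added here. Between the libraries with the most genes, P5 was above P1 for 8 of the 10 genes. Ccn2 differed most between them, at 6.78 times the P1 level in P5. No share of all genes is given for this comparison or for that of M1 with P4. More symbols were above 0 in P5 (20578) than in P1 (17824). Neither count can therefore be read as particular to the pathway.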

How the data were processed

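RNA of 4 untreated murine SCLC lines was sequenced (1 library each). The labels name a kit for total RNA and the study's methods one that reads mRNA from its 3′ end. CPM values between genes were therefore not compared. The submitters' processing notes name the build mm10. No source used here names the counting tool. The authors deposited CPM values from estimated counts, in which each library sums to 1000000. The most frequent value above 0 was taken as 1 read, and 79.0% to 88.9% of values were whole reads within 0.001 reads, so that no count model was fitted. Poisson intervals (SciPy 1.17.1) and floors cover counting error only. The 85 rows without a symbol (0.00672% to 0.0130% of a library) were left out, and rows that shared a symbol were summed.

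Lines were grouped by sample titles into primary and metastasis. The labels name lung as origin of all lines, the series' design a liver metastasis for M1. Genes that reached 1 CPM in any library were tested on log2(CPM + 1), a scale that understates changes of low genes, with limma 3.58.1 in R 4.3.3 (eBayes with trend, two-sided, Benjamini-Hochberg over all genes, threshold 0.05). With 3 lines against 1, p-values set M1 against the spread of the primary lines alone, which M1 is assumed to share. The script was tested on simulated data. Named genes were the 10 pathway genes, the 5 tested genes of each pathway list with the largest absolute difference, the 5 genes most like Yap1, Rb1 and Trp53. Genes and lists were chosen with earlier results of these data known. Alternatives covered pseudocount, filter, scaling, trend, a term for the number that P1 and P5 share in the deposited column names (its meaning is not given), and leaving out each primary line. Promoters and coordinates came from RefSeq tables (GRCm38.p6). Values of a few list genes are not reported here, though the counts, medians and summed levels of their lists include them.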

Additional observations from a re-analysis of the deposited data

How the results depend on the processing

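Over 11 alternatives, 0 genes passed the threshold in each (limma), and of 108 values of the 10 pathway genes 1 turned its direction, with adjusted p of 0.0664 or more. It was that of Ccn2, which ranged from -0.12 to 2.80 when a primary line was left out. Genes at an unadjusted p under 0.05 numbered 150 to 5286 when a primary line was left out, 770 when a mean of 10 CPM was required and 4899 with the term for the shared column number, which compares M1 with P4 and leaves 1 library of spread. Quantile normalization moved the median of all genes by 0.47 on the log2 scale; there 4 of the cofactor genes were below every primary line and Sfn turned to 0.010. With median-of-ratios scaling 1 cofactor gene was above every primary line. With the mean of 10 CPM required, 3 targets were below and 2 above. With the column number term, 10 core genes, 3 cofactor genes and 13 targets were above P4 and 4 cofactor genes below it, and Dlg5 and Ywhaz turned to 2.84 and 0.34. Without 1 primary line, counts below the others ranged from 4 to 10 for core genes, from 2 to 7 for cofactors and from 5 to 13 for targets, and cofactors above from 0 to 2; the highest of each came without P4. Taok1 ranged from -0.45 to 1.80 and Vgll4 from -0.46 to 2.52. Tead3, Tead4, Lats1 and Ccn2 were at 0 in P4, the library with the most reads and the fewest genes. No paired analysis was possible because the groups share fewer than 2 replicate numbers.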
